A study of Homo sapiens with 8 samples.

Results

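VIM, CDH2, CCDC80, FN1, AXL, CD44, SPARC and TGFBI are 8 genes used as markers of mesenchymal and invasive cells, out of 19962 protein-coding genes whose promoters were examined. They were taken as a named list of genes that would be active in SUM159, an established triple-negative breast cancer line of the mesenchymal, claudin-low type. The rule itself uses no measured value, but this list and the comparison lists below were chosen with earlier results of these data known. The study asked whether silencing of ZEB1, which drives the passage from an epithelial to a mesenchymal state (EMT), reshapes chromatin in these cells. Both groups carried dCas9-KRAB, a nuclease-dead Cas9 joined to a KRAB repressor domain, delivered by the lentiviral vector pLV-KRAB. Cells called All gRNA also carried 4 guide RNAs against the ZEB1 promoter, and cells called No gRNA carried the empty vector. Native ChIP-seq, in which nucleosomes are pulled down without cross-linking, was performed for H3K4me3 and for H3K9me3, with 2 libraries per group and mark.

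H3K4me3, trimethylation of lysine 4 on histone H3, sits at the start of genes whose promoters are open for transcription, and broad stretches of it are typical of genes that are central to a cell's identity. H3K9me3, trimethylation of lysine 9, marks silent heterochromatin, and KRAB brings in the enzymes that write it. During EMT cells give up epithelial junctions and produce a vimentin cytoskeleton, N-cadherin and a fibronectin-rich matrix, and ZEB1 is best known in this process for binding E-box sequences in the promoters of epithelial genes and repressing them.

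For each gene 3 values were taken from every deposited peak list. The H3K4me3 share is the percentage of bases covered by peaks within 1 kb of the annotated 5′ end of the gene (the start), the width is the length in bases of the longest H3K4me3 peak that touches this window, and the H3K9me3 share is the percentage covered within 10 kb of the start. Where 4 values are given, they stand for All gRNA replicate 1, All gRNA replicate 2, No gRNA replicate 1 and No gRNA replicate 2, in that order. The lists hold peaks with p up to about 0.1, and those with q ≤ 0.05, where q is the p adjusted by the peak caller, are the stronger ones.

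The targeted gene was checked first, since it tests the labels. Within 10 kb of the ZEB1 start, H3K9me3 covered 79.4%, 82.0%, 4.57% and 1.33%, so that the groups were far apart in the labelled direction. H3K4me3 within 1 kb of the ZEB1 start covered 0%, 100%, 0% and 100%, which goes against the labels of 1 library in each group. The same 2 H3K4me3 libraries, those labelled All gRNA replicate 2 and No gRNA replicate 1, carry the other condition in their file names. The labels were kept, and every H3K4me3 library below is the library labelled so. The full lists covered between 623 and 933 Mb for H3K4me3 and between 723 and 769.6 Mb for H3K9me3. At q ≤ 0.05 the 4 H3K4me3 libraries kept 8602, 3067, 3989 and 13877 peaks, so calls at that level depended strongly on the library.

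The promoters of the 8 genes differ in base composition. RefSeq gave 10 promoter windows for the 8 genes (GRCh38.p14, from 250 bases before to 50 bases after a start), against 35116 windows for all genes. Shown here is the part of 4 windows that lies before the start and outside exons of the gene. FN1 is given for its run of GC boxes, AXL for an E-box, SPARC because its share of H3K4me3 did not overlap between the groups, and CCDC80 because its H3K4me3 peaks were the weakest. Capitals mark an E-box (CAGGTG or CACCTG) or a GC box (GGGCGG, or CCGCCC on the other strand), and each sequence reads 5′ to 3′ on the strand of the gene.
FN1, chr2:215436074-215436318, minus strand: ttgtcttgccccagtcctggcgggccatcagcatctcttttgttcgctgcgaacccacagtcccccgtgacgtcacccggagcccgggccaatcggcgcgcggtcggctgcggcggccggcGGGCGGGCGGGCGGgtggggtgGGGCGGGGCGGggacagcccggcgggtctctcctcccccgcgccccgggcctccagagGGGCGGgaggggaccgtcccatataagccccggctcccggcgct
AXL, chr19:41218973-41219222, plus strand: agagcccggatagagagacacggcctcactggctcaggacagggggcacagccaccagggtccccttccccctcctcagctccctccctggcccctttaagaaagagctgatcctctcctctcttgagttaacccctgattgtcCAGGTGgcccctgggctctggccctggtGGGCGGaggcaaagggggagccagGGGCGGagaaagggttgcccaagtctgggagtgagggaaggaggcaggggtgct
SPARC, chr5:151686976-151687165, minus strand: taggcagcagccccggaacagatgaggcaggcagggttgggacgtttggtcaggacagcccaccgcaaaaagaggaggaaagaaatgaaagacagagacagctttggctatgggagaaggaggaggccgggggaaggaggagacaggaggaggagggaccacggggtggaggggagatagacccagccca
CCDC80, chr3:112641301-112641393, minus strand: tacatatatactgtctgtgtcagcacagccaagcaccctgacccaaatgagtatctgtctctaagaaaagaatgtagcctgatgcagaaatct

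GC boxes were found in 6 of the 10 windows, which belong to 6 of the 8 genes, and 45.0% of all windows hold one. The FN1 window held 6 matches, some of which overlap or adjoin, and the TGFBI window held 4. An E-box was found in 1 of the 10 windows, at position -106 from an AXL start, and 20.6% of all windows hold one. A TATA box (TATAAA) and an AP-1 site (TGANTCA, where N is any base) were found in the second CDH2 window alone, against 11.5% and 7.71% of all windows. All motifs were read on both strands, and a match describes letters in the window, not binding. The ratio of observed to expected CpG ranged from 0.142 in the CCDC80 window to 0.864 in the FN1 window, around a median of 0.579 over all windows. The CCDC80 stretch lies in an intron of the longer annotated transcripts, because its RefSeq window belongs to a start 8387 bases inside the annotated gene, whereas the FN1, AXL and SPARC stretches lie upstream of their genes.

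All 8 genes carried an H3K4me3 peak at the start in all 4 libraries. The same was true of 72.3% of all promoters, of 25 of 30 other mesenchymal genes and of 18 of 20 epithelial genes. At q ≤ 0.05 the picture was more selective. A peak of this strength stood at 6, 2, 2 and 8 of the 8 genes, which makes 18 of 32 pairs of gene and library, while 33.2%, 11.5%, 9.26% and 52.6% of all promoters had one. The 30 other mesenchymal genes had 14, 6, 7 and 20 such peaks, and the 20 epithelial genes had 3, 4, 2 and 6. Compared within each library with the peaks at all other promoters, the median fold enrichment of the 8 genes lay at percentile 83.2, 84.5, 85.5 and 83.2, and their median width at percentile 80.4, 81.6, 84.1 and 82.9.

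**Figure D1:**
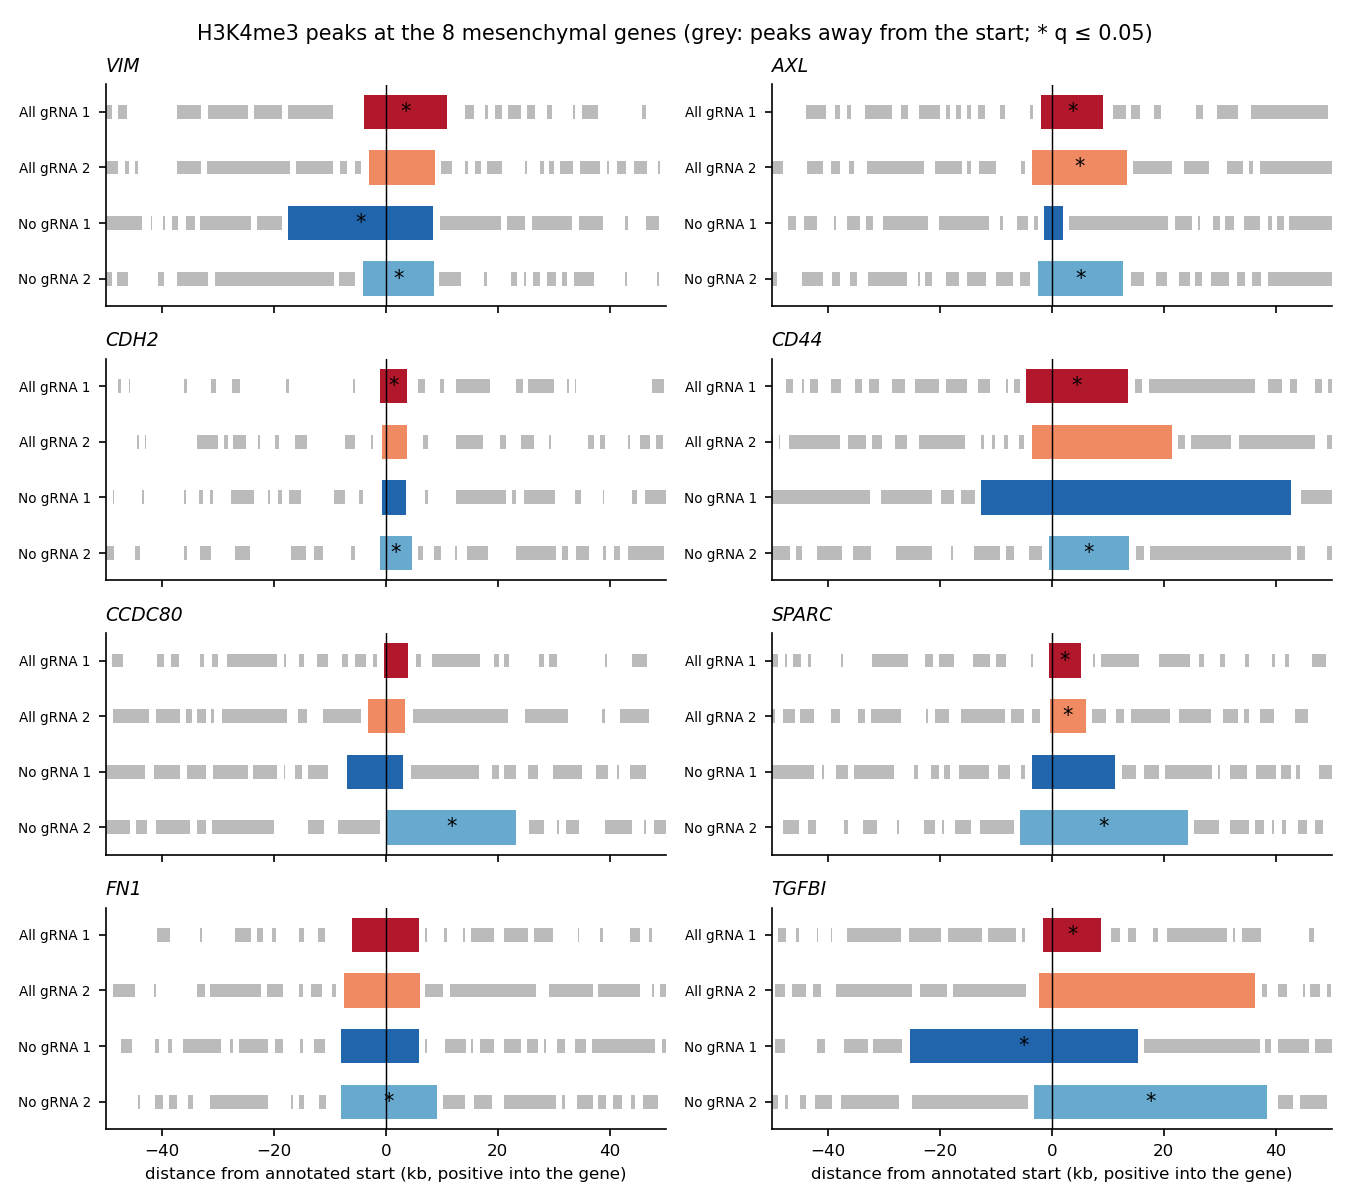
H3K4me3 peaks around the start of each of the 8 genes, with distance from the start in kb on the horizontal axis (positive into the gene) and 1 row per library. The coloured bar is the peak that was measured at the start, a star marks q ≤ 0.05, and grey bars are other deposited peaks. Every row has a coloured bar, and 18 of the 32 bars have a star.

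VIM encodes vimentin, the intermediate filament protein of mesenchymal cells, and starts at position 17228241 of chromosome 10. Its H3K4me3 share was 100% in all 4 libraries. The peak measured 14868, 11726, 25893 and 12626 bases, so No gRNA replicate 1 stood apart from the other 3. VIM had the strongest peaks of the list, with a median percentile of 95.7 for fold enrichment, and its q ran from 1.6e-05 in No gRNA replicate 2 to 0.0582 in All gRNA replicate 2. The difference in width between the groups, 13297 ± 2222 bases (SD, n = 2) against 19259.5 ± 9381, lay within the spread of the No gRNA libraries (exact two-sided permutation p = 0.67).

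The adhesion genes gave the narrowest and one of the widest peaks. CDH2, which encodes N-cadherin, starts at position 28177946 of chromosome 18, and its peak measured 4822, 4516, 4279 and 5710 bases. This was close to the median of all promoters, at a median width percentile of 42.9, although its fold enrichment was high, at a median percentile of 88.5. The H3K4me3 share of CDH2 was 100%, 85.0%, 82.6% and 100%, and the groups overlapped in both measures. CD44, the receptor for hyaluronan, starts at position 35138882 of chromosome 11, and its peak measured 18183, 24955, 55303 and 14422 bases. The No gRNA libraries held both the widest and the narrowest CD44 peak, so the groups overlapped. The CD44 share was 100% in 3 libraries and 78.6% in No gRNA replicate 2, where the peak began 572 bases before the start.

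Among the genes of the extracellular matrix, FN1, SPARC, TGFBI and CCDC80 each had a narrower peak in both libraries labelled All gRNA than in either labelled No gRNA. FN1 encodes fibronectin and starts at position 215436073 of chromosome 2. Its peak measured 11884, 13502, 13940 and 17185 bases, and only 438 bases separated the groups. After CDH2, FN1 varied least across the 4 libraries (SD 2222 bases), its peak extended about as far upstream as into the gene, and it was covered to 100% in every library. Yet its q was at or below 0.05 in No gRNA replicate 2 alone, at 0.00191, and was 0.0874, 0.0663 and 0.0968 in the other three.

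SPARC encodes a secreted glycoprotein that binds collagen, and starts at position 151686975 of chromosome 5. Its peak measured 5779, 6371, 14824 and 29958 bases, a mean of 6075 ± 419 (SD, n = 2) in All gRNA and 22391 ± 10701 in No gRNA. The 2 All gRNA libraries were nearly alike, and both lay below the No gRNA libraries by at least 8453 bases. The SPARC share was 78.0%, 66.8%, 100% and 100%, which is the one share of H3K4me3 in the list whose groups did not overlap, with 22.04 points between them. In the All gRNA libraries the peak reached 559 and 335 bases upstream of the start, and in the No gRNA libraries 3596 and 5733 bases. The peaks in the All gRNA libraries were nonetheless the stronger ones within their lists, at percentiles 96.0 and 95.8 for fold enrichment against 71.3 and 73.2 in No gRNA. This separation depends on the labels and on weak peaks. With the 2 libraries in doubt exchanged as their file names say, the widths overlapped and the mean share was 5.60 points higher in All gRNA. At q ≤ 0.05 it was 22.4 points higher in All gRNA, where the peak of No gRNA replicate 1 (q = 0.133) dropped out.

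TGFBI, which encodes a secreted matrix protein induced by TGF-β, starts at position 136028988 of chromosome 5. Its peak measured 10334, 38555, 40749 and 41625 bases, so that All gRNA replicate 1 stood far below 3 libraries of similar width. TGFBI had the highest mean width of the list and the highest median width percentile, 97.7. It was wider than CD44 in only 2 of the 4 libraries. In All gRNA replicate 2 and No gRNA replicate 2 the peaks of TGFBI covered the whole gene of 34.8 kb. The 2194 bases between the groups were small beside the SD of 19955 bases in All gRNA.

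CCDC80 encodes a protein associated with the matrix and starts at position 112649530 of chromosome 3. Its peak measured 4287, 6580, 9892 and 23226 bases, and the groups were 3312 bases apart. CCDC80 had the weakest peaks of the list, at a median percentile of 46.3 for fold enrichment, with q ≤ 0.05 in No gRNA replicate 2 alone. Its H3K4me3 share was 63.4%, 100%, 100% and 49.9%, and in No gRNA replicate 2 the peak began 39 bases inside the gene. At the start of the canonical transcript, 8387 bases into the gene, the share was 54.7%, 100%, 100% and 100% and the width 8543, 16896, 12156 and 23226 bases, so that the widths of the groups overlapped there.

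AXL, a receptor tyrosine kinase whose ligand is GAS6, starts at position 41219223 of chromosome 19. Its H3K4me3 share was 100% in every library, and the peak measured 11032, 16798, 3429 and 15203 bases. No gRNA replicate 1 had the narrow peak, and AXL was the only one of the 8 genes whose mean width was higher in All gRNA, at 13915 ± 4077 bases (SD, n = 2) against 9316 ± 8325. The groups overlapped (exact two-sided permutation p = 0.67). That direction rested on the narrow peak, which ended 2094 bases into the gene, with the next deposited peak of that library running from 3082 to 20785 bases. The mean difference turned to -4746.5 bases with gaps up to 1 kb joined, to -1288 without No gRNA replicate 1, and to -7601.5 at q ≤ 0.01.

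**Figure D2:**
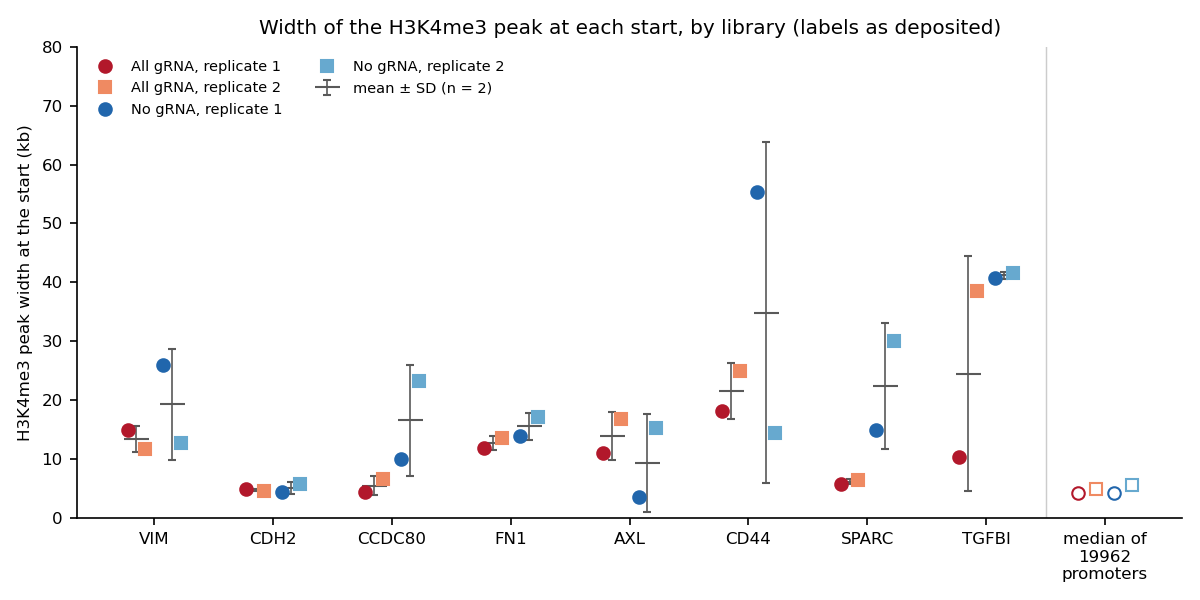
Width of the H3K4me3 peak at the start of each gene in kb, with 1 point per library and the mean ± SD of the 2 libraries of each labelled group, and open points for the median of all 19962 promoters. CCDC80, FN1, SPARC and TGFBI show both All gRNA points below both No gRNA points, and CDH2 lies at the level of the median promoter.

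Over the list, 4 of 8 genes had a width lower in both All gRNA libraries than in either No gRNA library, as did 19.0% of all promoters. No gene (0 of 8) had the reverse, against 9.79% of all promoters. The count depends on the labels of the 2 libraries named above. With these exchanged as their file names say, the widths overlapped at all 4 genes, and 1 of 8 was lower without overlap, AXL, and 1 higher, VIM, against 25.1% and 8.61% of all promoters. By the labels, the mean width was lower in All gRNA at 7 of 8 genes and at 56.3% of all promoters. The median of the differences per gene was -8544 bases for the 8 genes and -327 for all promoters. It was -1443 for the 30 other mesenchymal genes and -14.5 for the 20 epithelial genes. These values are not scaled to the width of the peaks, which was larger at the 8 genes in every library. The median width of the 8 genes was 10683, 12614, 14382 and 16194 bases, and that of all promoters was 4125, 4840.5, 4219 and 5553. The groups did not overlap in the former, where the mean of the All gRNA libraries was lower by 3639.5 bases, and overlapped in the latter. Every exact permutation p for the 4 genes was 0.33, the smallest that 2 against 2 libraries allow, and a mark present in fewer cells cannot be told apart here from less of it in each cell.

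With the 2 libraries whose file names match their labels, All gRNA replicate 1 and No gRNA replicate 2, the width was lower in All gRNA at 6 genes, the 4 genes above among them, and higher at 2, VIM and CD44. Of all promoters, 62.7% were lower and 29.6% higher between these libraries, with 1 library a group and no test. With peaks at q ≤ 0.05 alone, 1 of the 8 genes, TGFBI, was lower without overlap. When each list was shortened to the same covered length at that level, the count was 0, and SPARC turned, with a width 6075 bases higher and a share 72.4 points higher in All gRNA. The share of all promoters without overlap was not computed at either setting, so these counts have no background beside them.

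The H3K4me3 share was at its ceiling in most of the list. It was 100% in 25 of 32 pairs of gene and library, and VIM, FN1, AXL and TGFBI were at 100% throughout. A share was called different where 25 points or more lay between the lowest library of one group and the highest of the other. None of the 8 genes (0 of 8) passed, while 1.78% of all promoters were called higher and 2.21% lower in All gRNA. SPARC came nearest, and was past the limit without All gRNA replicate 1 and within 2 kb of the start, where its mean difference was -38.8 points. By overlap alone, 1 of 8 was lower in All gRNA against 7.60% of all promoters, and 0 of 8 higher against 6.33%. With the 2 libraries whose file names match their labels, SPARC was again lower, by 22.04 points, and CD44 and CCDC80 were higher, where 31.7% of all promoters were lower and 17.6% higher. With the 2 libraries in doubt exchanged, no gene (0 of 8) was lower or higher without overlap, against 12.6% and 4.45% of all promoters, and the mean SPARC share was 5.60 points higher in All gRNA.

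Ranked by mean width over the 4 libraries, the order was TGFBI at 32816 bases, CD44 at 28216, VIM at 16278, SPARC at 14233, FN1 at 14128, AXL at 11616, CCDC80 at 10996 and CDH2 at 4832. The ranges of all neighbours in this order overlapped. Compared within libraries, CD44 was wider than VIM in all 4, and no other gene was wider than the next in all 4. Among all promoters, the width profile closest to the median profile of the 8 genes was that of RPS10 and of RPS10-NUDT3, which had the same values, 11814, 13005, 14329 and 16474 bases, at a Euclidean distance of 0.156 on the log2 scale over 4 libraries. CDC123 followed at 0.165, with 10828, 12490, 13647 and 14616 bases.

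H3K9me3 near the 8 genes was weak. A peak lay within 10 kb of the start at 5, 7, 8 and 8 of the 8 genes, or 62.5%, 87.5%, 100% and 100%, while 61.8%, 66.4%, 77.9% and 80.01% of all promoters had one. The median share of the 8 genes was 6.28%, 4.43%, 8.92% and 14.0%, against 3.59%, 4.78%, 6.63% and 7.62% for all promoters, so the list lay above the median promoter in 3 of the 4 libraries. In 4 of the 32 pairs of gene and library no peak lay within 10 kb of the start, and none of the 32 (0 of 32) had a peak at q ≤ 0.05 there, whereas between 3.53% and 10.3% of all promoters had one. The nearest peak of that strength stood 17.6 kb from the CCDC80 start at its closest and 1175 kb from the AXL start at its farthest. The start itself lay inside a peak in 4 pairs, which were CCDC80 in 3 libraries and SPARC in All gRNA replicate 1. CCDC80 was thus the gene where H3K9me3 peaks came closest to q ≤ 0.05, with a lowest q of 0.0511 in No gRNA replicate 2.

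**Figure D3:**
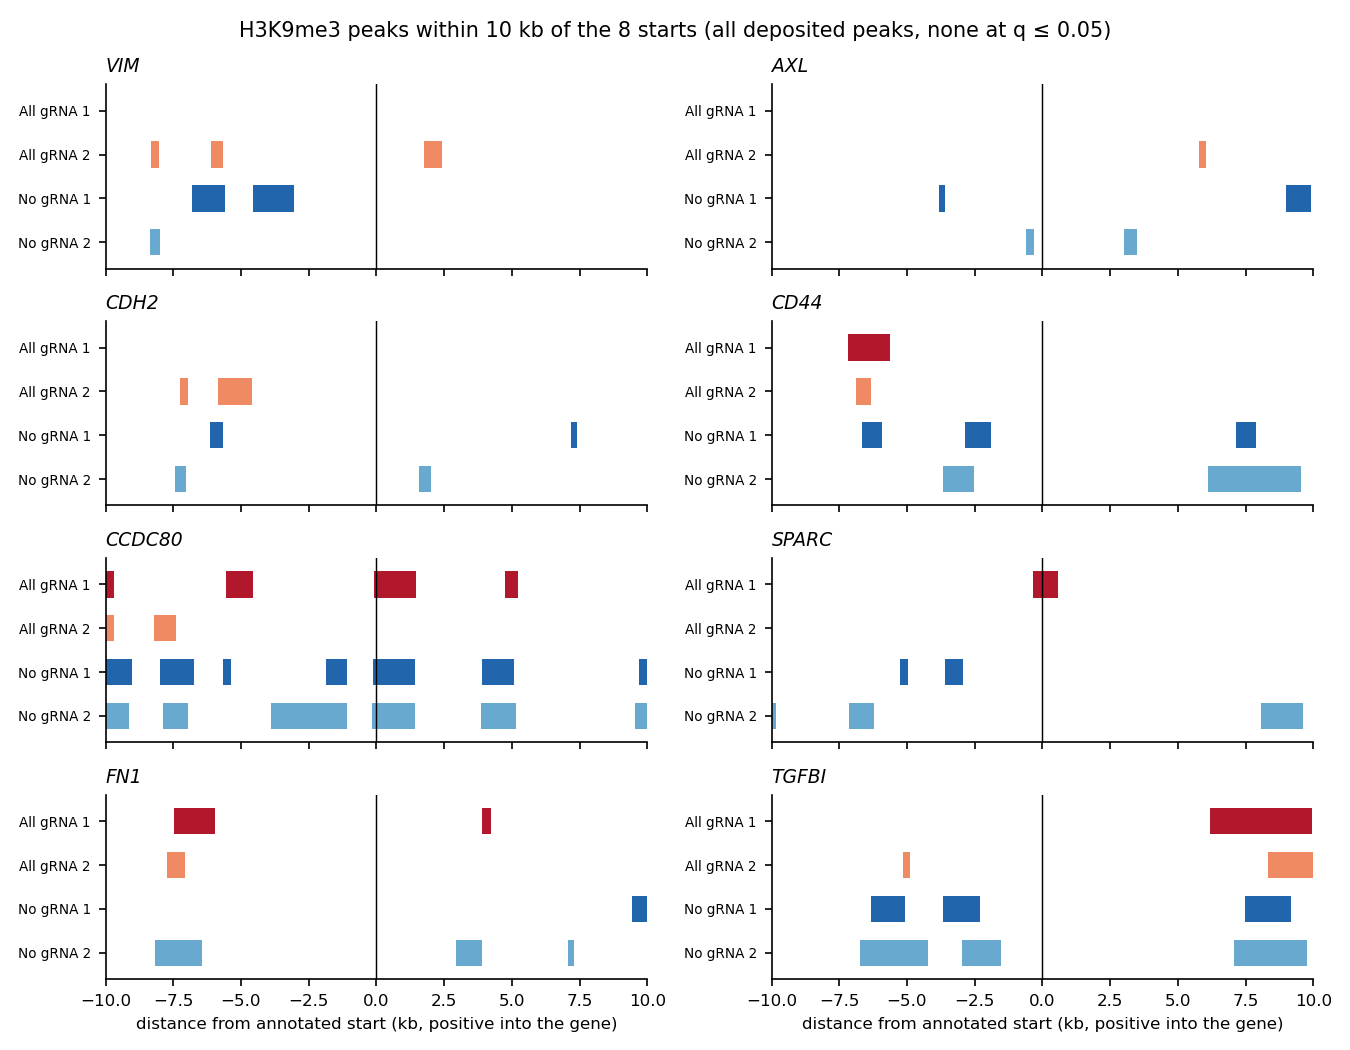
H3K9me3 peaks within 10 kb of each start, with distance in kb on the horizontal axis (positive into the gene) and 1 row per library. None of the peaks reached q ≤ 0.05, and CCDC80 is the gene with a peak across the start in 3 of 4 libraries.

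The weak H3K9me3 peaks covered less in All gRNA at 5 of the 8 genes without overlap, and 24.4% of all promoters showed the same. No gene (0 of 8) was higher without overlap, against 11% of all promoters. At CCDC80 the share was 16.6%, 5.67%, 31.8% and 39.6%, a mean of 11.2% ± 7.75 (SD, n = 2) in All gRNA and 35.7% ± 5.51 in No gRNA. Both All gRNA libraries were lower by at least 15.1 points, more than the spread of either group. At the canonical CCDC80 start the shares were 17.5%, 7.55%, 25.7% and 22.9%, in the same direction with a smaller gap.

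TGFBI followed, with H3K9me3 shares of 18.9%, 9.76%, 21.5% and 33.2%, and CD44 with 7.87%, 2.89%, 12.2% and 22.8%. In both genes the groups were separated by less than the range within either, by 2.65 points at TGFBI and 4.34 at CD44. AXL had 0%, 1.31%, 5.63% and 4.02%, all of them low, with 2.71 points between the groups. SPARC had 4.69%, 0%, 4.85% and 13.3%, where 0.160 points separated them. SPARC turned with the window, to a mean difference of 1.105 points higher in All gRNA within 5 kb of the start.

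In the remaining genes the H3K9me3 values of the groups overlapped. VIM had 0%, 7.05%, 13.7% and 1.87%, CDH2 had 0%, 7.69%, 3.55% and 4.39%, and FN1 had 9.41%, 3.19%, 2.87% and 14.8%. The lowest and the highest value were both All gRNA at CDH2 and both No gRNA at FN1.

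**Figure D4:**
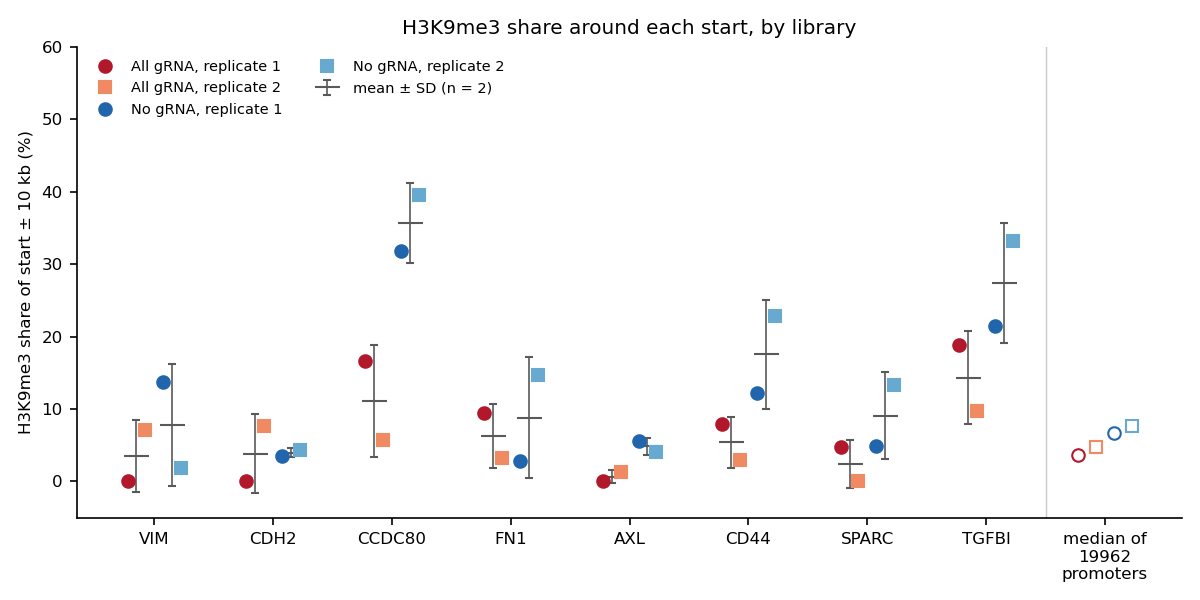
H3K9me3 share within 10 kb of each start in percent, with 1 point per library and the mean ± SD of the 2 libraries of each group, and open points for the median of all promoters. CCDC80, AXL, CD44, SPARC and TGFBI show both All gRNA points below both No gRNA points, and so do the open points.

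The mean H3K9me3 share was lower in All gRNA at 8 of 8 genes and at 57.7% of all promoters, with a median difference of -5.50 points for the 8 genes, -2.47 for the other mesenchymal genes, -1.75 for the epithelial genes and -0.92 for all promoters. The number of peaks and the median promoter moved the same way. The All gRNA libraries held 321975 and 342875 H3K9me3 peaks and the No gRNA libraries 401362 and 410355, and the median share of all promoters was 3.59% and 4.78% against 6.63% and 7.62%. Covered length went the other way, at 739.8 and 769.6 Mb in All gRNA and 722.9 and 724.0 Mb in No gRNA. With the full lists brought to equal covered length, 6 of 8 genes were lower without overlap and the difference in the median was -6.82 points. The share of all promoters without overlap was not computed at that setting, so this count is not a result about the 8 genes. The part that the number of peaks has in the difference at the 8 genes was not tested. No gene (0 of 8) passed the gap of 25 points, which 0.180% of all promoters passed upwards and 0.0351% downwards. CCDC80 passed it when All gRNA replicate 1 was left out.

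Inside the gene bodies the 8 genes had more H3K4me3 than the median gene in most libraries. Peaks covered between 89.5% and 100% of VIM, a gene of 9.35 kb that is shorter than its own peak in every library, and between 70.9% and 100% of TGFBI. SPARC was covered to 69.5%, 78.0%, 85.0% and 95.9%, while the median over all genes was 36.6%, 46.1%, 49.1% and 46.9%. Both All gRNA libraries were lower, but this coverage includes the peak whose width is given above. That peak reached 5219, 6035, 11227 and 24224 bases into a gene of 25.9 kb, so the coverage is no separate support. With the 2 libraries in doubt exchanged, the groups overlapped. The share of all genes without overlap was not computed for gene bodies. CDH2, the longest gene of the list at 245 kb, was close to that median at 27.3%, 38.7%, 52.8% and 41.7%. H3K9me3 covered at most 15.2% of any of the 8 gene bodies, reached in TGFBI in No gRNA replicate 2.

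The 30 other mesenchymal genes, listed for comparison, varied more. Among them LOX, which encodes the enzyme that cross-links collagen, was called higher in All gRNA, with an H3K4me3 share of 100%, 100%, 54.8% and 61.4%. CALD1, which encodes the actin-binding protein caldesmon, was called lower, with 0%, 15.1%, 57.2% and 77.5%. So 1 of 30 was called in each direction by the labels, against 1.78% of all promoters higher and 2.21% lower. With the 2 libraries in doubt exchanged as their file names say, the shares of the groups overlapped at LOX and at CALD1. In width, where 19.0% of all promoters were lower and 9.79% higher without overlap, 8 of 30 were lower and 2 higher. In H3K9me3, where 24.4% of all promoters were lower and 11% higher, 7 of 30 were lower and 2 higher. Among the widest peaks of this list were those of ITGA5, an integrin subunit that binds fibronectin, and CAV1, which encodes caveolin, with means of 26012 and 25002 bases.

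At the other end stood POSTN, CDH11 and MMP2, with mean H3K4me3 widths of 86.5, 97.25 and 1485 bases. CDH11, which encodes a cadherin of mesenchymal cells, had no H3K4me3 peak at the start in 3 of 4 libraries and an H3K9me3 share of 90.7%, 90.2%, 71.5% and 85.9%, whereas CDH2 had an H3K4me3 peak in every library and an H3K9me3 share of at most 7.69%. Genes with little or no H3K4me3 at the start in either group are therefore part of the longer list. Of the 20 epithelial genes, 5 were lower and 1 higher in width without overlap, against 19.0% and 9.79% of all promoters. In H3K9me3, 7 were lower and 1 higher, against 24.4% and 11%. In H3K4me3 share, 2 were lower and 2 higher without overlap, against 7.60% and 6.33%. By the labels, 1 of 20 was called higher and 1 lower in that share, against 1.78% and 2.21%. With the 2 libraries in doubt exchanged as their file names say, the shares of the groups overlapped at both called genes.

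**Figure D5:**
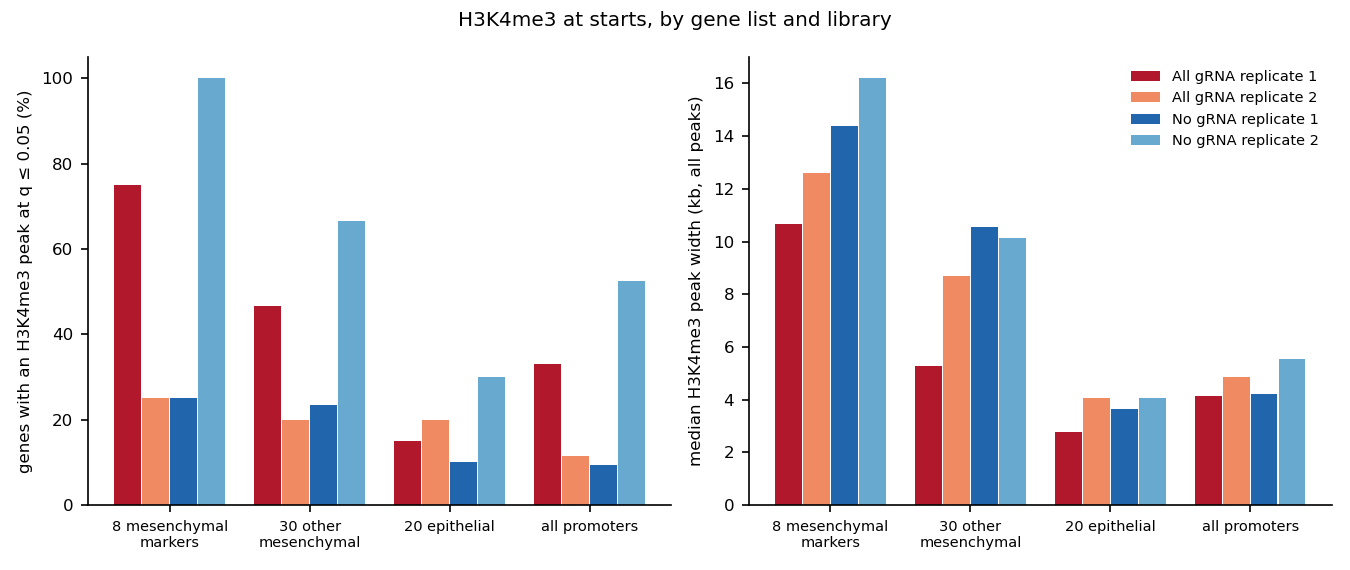
Percentage of genes with an H3K4me3 peak at q ≤ 0.05 at the start (left) and median width of the H3K4me3 peak in kb from all deposited peaks (right), for the 8 genes, the 30 other mesenchymal genes, the 20 epithelial genes and all promoters, with 1 bar per library. The 8 genes stand above the other lists in every library in both panels.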

How the data were processed

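Native ChIP-seq libraries of SUM159 cells were analysed, 2 for each of 2 groups and 2 marks, with groups taken from the sample labels. The labels call the replicates biological but do not say that they came from separate cultures, so a p-value measures only the spread between these libraries. According to the methods of the study, reads were trimmed with fastp, aligned to hg38 with bowtie2, cleared of an exclusion list and of duplicates, and MACS2 called broad peaks library by library. The submitters' processing notes instead name bcl2fastq 2.17, Trimmomatic 0.33, Bowtie 1.1.2 and MACS2 2.1.0. Which of these made the lists, and whether input served as control, is not given in the sources used here.

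Each deposited peak carries a score, a fold enrichment ratio, a −log10 p-value and a −log10 q-value as the authors' peak caller gave them. All deposited peaks were kept as the main setting, merged where they overlapped, on chromosomes 1 to 22 and X. GENCODE release 44 gave the starts of 19962 protein-coding genes. Peak lists hold no read counts, so depth is unknown, no interval can be given, and no model per site could be fitted. Values were compared by an exact two-sided permutation test over the 6 ways to label 2 of 4 libraries, with 0.33 as the smallest p. Percentiles are among the promoter peaks of the same library. Motifs and CpG content were read from RefSeq promoter sequences. The computations were tested on simulated intervals and run in Python 3.11.15 with numpy 2.4.6, pandas 2.3.3 and matplotlib 3.10.9.

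The 8 genes and the comparison lists of 30 mesenchymal and 20 epithelial genes were chosen with earlier results of these data known. Named besides the 8 genes were ZEB1, genes of the mesenchymal list that were called or had the 3 widest or 3 narrowest mean peaks, and the 3 promoters with the closest profile of log2(width + 1). One gene that this rule selects is not reported here. Alternatives were peaks at q ≤ 0.05 or 0.01, equal covered length, other windows, joined gaps of 1 kb, the canonical start, a gap of 50 points, each library left out, and a replicate block. Restriction to the 2 H3K4me3 libraries whose file names match their labels, and exchange of the other two, were chosen after seeing the data.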

Additional observations from a re-analysis of the deposited data

How the results depend on the processing

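Of 535 alternative values for 39 results, 390 moved by less than the replicate spread or, for counts, by less than 1.5 times. Of the 369 that are differences between the groups, 36 had the other sign, in 13 of 27 differences, and 5 of these were at genes whose groups did not overlap, all at SPARC. The SPARC difference, All gRNA minus No gRNA, turned to 22.4 points of H3K4me3 share at q ≤ 0.05, to 72.4 points and 6075 bases of width at equal covered length at the q ≤ 0.05 level, to 1.105 points of H3K9me3 share within 5 kb, and to 5.60 points of H3K4me3 share with the 2 libraries in doubt exchanged as their file names say. The cause was not tested, and the depth of the libraries is unknown.

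The difference between groups in the median of the 8 genes per library was 0 points of H3K4me3 share, and became -50 at q ≤ 0.01, 16.5 at equal covered length at the q ≤ 0.05 level and -3.78 within 2 kb. For width it was -3639.5 bases, and became -7406 at q ≤ 0.01, 907, the other sign, at equal covered length at that level, -5456 with gaps joined, -5511 with the 2 libraries whose file names match and -1871.5 with the 2 in doubt exchanged. For H3K9me3 it was -6.13 points and became 0 at q ≤ 0.05, at q ≤ 0.01 and at equal covered length at the q ≤ 0.05 level. Without each library in turn it ran from -4605 to -2674 bases and from -8.68 to -3.57 points, and stayed at 0 for the H3K4me3 share.

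Members lower without overlap in H3K4me3 share (1) became 0 at q ≤ 0.05, at q ≤ 0.01, at equal covered length at the q ≤ 0.05 level, within 500 bases and with the exchange. Members higher (0) became 1 at that equal length. In width, members lower (4) became 1 at q ≤ 0.05 and with the exchange, and 0 at q ≤ 0.01 and at equal length. Members higher in width (0) became 1 at equal length and with the exchange. In H3K9me3, members lower (5) became 0 at q ≤ 0.05, q ≤ 0.01 and equal length, where members higher stayed at 0. Counts without overlap are not given here for settings that leave 1 library in a group, which has no range of its own to overlap. Of the settings named for these counts, only the main one and the exchange have a share of all promoters without overlap. The counts at the other settings therefore have no background beside them. Members called at 25 points (0) became 1 for H3K4me3 at equal length and within 2 kb, in each case SPARC but in opposite directions. The mean SPARC share was 72.4 points higher in All gRNA at equal length and 38.8 points lower within 2 kb. Without each library, members called ran from 0 to 1 for either mark.

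Same-numbered replicates deviated together by a correlation of 0.015 for H3K4me3 and 0.026 for H3K9me3 over 19962 promoters, so the numbers do not pair the libraries. With the replicate block, members higher in width became 1, members lower in width 5, and all promoters called lower in H3K9me3 13, and the other counts over members did not change. The share of all promoters without overlap was not computed with the block, so the counts of 1 and 5 have no background beside them.

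Of all promoters, 356 were called higher and 442 lower in H3K4me3. The higher calls became 27 at q ≤ 0.05, 3 at q ≤ 0.01, 226 within 2 kb, 84 at 50 points, 1503 with the 2 libraries whose file names match and 225 with the exchange. The lower calls became 201 at q ≤ 0.01, 55 at equal length, 121 at 50 points, 3214 with those 2 libraries and 846 with the exchange. Without each library the higher calls ran from 706 to 2471 and the lower calls from 1020 to 1443. In H3K9me3, 36 were called higher and 7 lower. The higher calls became 63 at equal length at the q ≤ 0.05 level, 59 within 5 kb and 3 at 50 points, and ran from 75 to 148 without each library. The lower calls became 1 at q ≤ 0.05, 2 at q ≤ 0.01, 12 at equal length, 33 within 5 kb, 1 within 25 kb and 0 at 50 points, and ran from 28 to 93 without each library.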
